A study of Mus musculus with 22 samples.

Results

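The mRNA levels of 9 genes of the Nodal and Activin pathway were followed as primed mEpiSCs, stem cells of the mouse postimplantation epiblast, were reverted to naive cells. The genes were taken by name from the 34489 genes of the count table, by a rule that uses no measured value, and all 9 were present. They comprise the ligands Nodal and Gdf3, the secreted antagonists Lefty1 and Lefty2, the co-receptor Tdgf1 (also known as Cripto), the receptors Acvr1b and Acvr2b, and the intracellular effectors Smad2 and Smad3.

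RNA-seq of 22 libraries compared primed mEpiSCs with cells treated with activators of AMP-activated protein kinase (AMPK), with the reverted cells grown out of them, and with naive mouse embryonic stem cells (mESCs). The naive mESCs (1 library) were Rex1-GFP cells, a line labelled 129/Ola with GFP driven by Rex1, kept in 2iL, which is inhibitors of MEK and GSK3 plus LIF. The primed mEpiSCs (2 libraries) were the Oct4GIP line, labelled 129/Ola and carrying GFP and puromycin resistance under Oct4 regulatory sequence, and the 129/MSM line. The study derived 129/MSM from a cross of MSM/Ms males with 129X1/SvJ females. It lists Oct4GIP and Rex1-GFP cells as XX and 129/MSM cells as XY. Both primed lines were maintained with FGF2 and Activin A, so the primed cells received an Activin ligand from outside. For treatment, cells were put on mouse embryonic fibroblast (MEF) feeders with FGF2 and Activin A and then changed to Basal medium, an mESC medium that contains serum, whereas the study's methods describe maintenance of primed Oct4GIP cells on fibronectin and of 129/MSM cells on feeders in another medium. Treated cultures of Oct4GIP were collected at d8 (4 libraries) and d16 (4 libraries), and at each day 1 library came from Basal medium, 1 from 2iL, 1 from AICAR and 1 from AICAR+LIF. Reverted cells at d16+2-3p (4 libraries, all Oct4GIP) had been treated for 16 days with AICAR or AICAR+LIF and then moved to 2iL for 2 or 3 passages. Reverted cells at d16+10p (7 libraries) had 10 passages in 2iL; 5 were Oct4GIP, treated with AICAR, AICAR+LIF, A769662, A769662+LIF or metformin+LIF, and 2 were 129/MSM, treated with AICAR or AICAR+LIF. AICAR, A769662 and metformin all activate AMPK. Each condition of a line and time had 1 library, so libraries of a group differ in treatment, and p-values measure only the spread between these libraries.

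Nodal is a secreted ligand of the TGF-β family that binds type I receptors such as ACVR1B and type II receptors such as ACVR2B together with the co-receptor TDGF1, while Activin binds the same receptor types without TDGF1. The receptors phosphorylate SMAD2 and SMAD3, which enter the nucleus with SMAD4 and act with partners such as FOXH1. Nodal, Lefty1 and Lefty2 are themselves targets of the pathway, and the Lefty proteins inhibit Nodal, which forms a negative feedback loop. In mEpiSCs the pathway sustains primed pluripotency, whereas naive mESCs in 2iL are kept without added Activin.

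Lefty1 and Lefty2 are neighbouring copies on chromosome 1, so the identity of their reads bears on every result for the pair. In GENCODE M21 on GRCm38, Lefty2 (ENSMUSG00000066652) spans chr1:180893108-180899103 and Lefty1 (ENSMUSG00000038793) spans chr1:180935022-180938400, both on the + strand. Their coding sequences each hold 1104 bases, aligned with 0 gaps and 91.8% identical.

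Reads were 79 bases long. Of the 1678 windows of that length in Lefty1 transcripts, 181 (10.8%) also occurred in Lefty2, so a read from them cannot be assigned by sequence. The same 181 windows made up 7.15% of the 2531 in Lefty2. Tdgf1 shared 149 of 2694 windows (5.53%) with the pseudogene Tdgf1-ps1, which itself had at most 108 counts in a library. The other 6 members shared 0 windows with another gene.

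RefSeq promoter windows (GRCm38.p6, 250 bases before the start) were found for Nodal, Tdgf1, Acvr1b, Acvr2b and Smad3. Lefty1, Lefty2, Gdf3 and Smad2 had no entry. The windows of Nodal (chr10:61417722-61417971, + strand) and Tdgf1 (chr9:110946159-110946408, − strand) are shown because these members fell the most in the treated cultures. They were searched on both strands for the SMAD element CAGAC and the FOXH1 element AATCCACA, which do not overlap each other, and capitals mark a match.
Nodal: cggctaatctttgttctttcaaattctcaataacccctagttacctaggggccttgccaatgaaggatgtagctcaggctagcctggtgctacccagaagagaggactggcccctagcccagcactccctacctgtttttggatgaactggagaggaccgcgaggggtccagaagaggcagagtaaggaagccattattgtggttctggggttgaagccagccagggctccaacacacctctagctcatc
Tdgf1: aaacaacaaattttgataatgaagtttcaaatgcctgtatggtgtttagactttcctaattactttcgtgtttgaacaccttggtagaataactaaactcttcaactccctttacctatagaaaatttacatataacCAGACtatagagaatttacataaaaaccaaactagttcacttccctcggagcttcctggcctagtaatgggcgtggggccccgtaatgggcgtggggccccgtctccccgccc
The Tdgf1 window held 1 SMAD element and the Nodal window 0, which says only that these letters are not in this window. The element was present in 42.2% of 32851 promoter windows of this length, so a match is common. Acvr2b also held 1, whereas Acvr1b and Smad3 held 0. The FOXH1 element occurred in 0.718% of all windows and in 0 of the 5.

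Library depth ranged from 438771 to 5290163 counts, and 3 counts, used as the floor of detection, were worth 0.556 to 5.75 CPM (the counts of a library rescaled to a common total, with TMM factors). Floors cover counting error only. The summed level of 7 naive genes was 2992 to 5113 CPM in reverted cells, 4520 CPM in naive mESCs and 18.3 to 29.0 CPM in primed mEpiSCs. A list of 6 primed genes summed to 502 CPM in Oct4GIP and 1794 CPM in 129/MSM primed mEpiSCs and to 93.5 CPM in naive mESCs. It also summed to 550 to 686 CPM in all 4 reverted libraries at d16+2-3p, against 96.8 to 329 CPM at d16+10p. Genes of this list did not move together. At d16+10p the log2 fold change of Fgf5 was -9.44 against primed mEpiSCs and -2.51 against d16+2-3p. In the same order, Otx2 had -6.17 and -1.73, and Pou3f1 -4.25 and -0.87. Zic2 had -1.275 and -0.78, Dnmt3b -2.17 and -2.05, and Sfrp2 -0.57 and -1.19. The sum at d16+2-3p is therefore no measure of how primed these cells were. In the 8 treated cultures the sum of 6 pluripotency genes was 142 to 311 CPM, against 1544 to 3039 CPM elsewhere. This list was split. Against primed mEpiSCs Sox2 was higher in the cultures (log2 fold change 1.65, edgeR adjusted p = 0.000579). Pou5f1 (-6.50), Nanog (-3.53), Sall4 (-4.58), Lin28a (-6.17) and Utf1 (-11.76) were lower. The sum in the cultures therefore does not show how much of the other genes remained. A list of 12 feeder fibroblast genes reached 3152 to 51820 CPM in the cultures, with 11 or 12 of the 12 genes above the floor. The 129/MSM primed library stood apart from the Oct4GIP primed library, with 1149 CPM against 4.48 CPM over 6 endoderm genes (5 against 1 above the floor) and 893 CPM against 66.1 CPM over the 12 feeder genes (12 against 5 above the floor). In bulk libraries such as these, fewer cells of a type and less RNA per cell cannot be told apart.

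**Figure D1:**
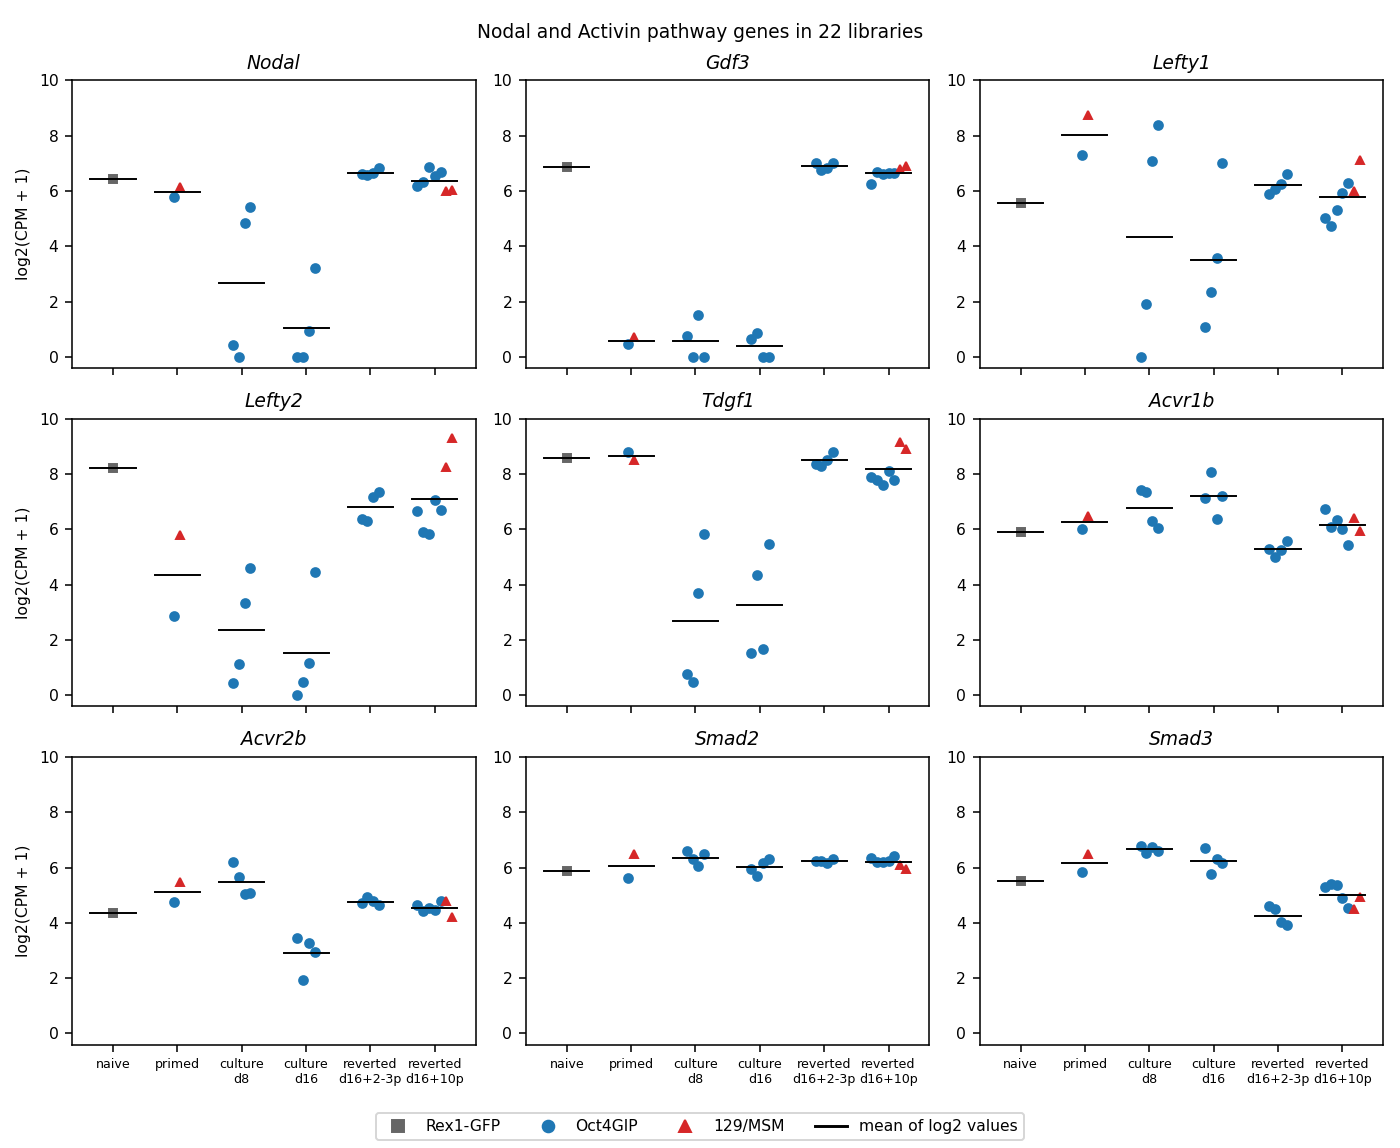
Level of the 9 pathway genes in each of the 22 libraries (log2 scale of CPM + 1, groups along the horizontal axis, 1 point per library with symbols for the line, horizontal bars for the mean of the log2 values). Gdf3 sits at the floor in primed mEpiSCs and treated cultures and between 74.3 and 128 CPM in all reverted cells, Nodal and Tdgf1 fall in the treated cultures, and Smad2 stays between 47.8 and 94.7 CPM in every group.

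Levels were also compared per kilobase of transcript, so that genes of different length can be set side by side. By group mean, Tdgf1 was the most abundant member in every pluripotent group. Its mean level was 208 CPM per kb in primed mEpiSCs, 187 in reverted cells at d16+2-3p, 162 at d16+10p and 198 in naive mESCs. Single libraries could differ. The Oct4GIP primed library had 227 CPM per kb of Tdgf1 and 97.1 of Lefty1, but the 129/MSM primed library had 188.5 and 263.6. What ranked second differed between groups. In primed mEpiSCs it was Lefty1 at 180 CPM per kb (range 97.1 to 264), in reverted cells at d16+2-3p it was Gdf3 at 55.6, and at d16+10p it was Lefty2 at 79.5. In the single naive library Lefty2 was also second, at 121 CPM per kb, followed by Gdf3 at 54.3. Mean levels of Smad2 lay between 7.05 and 10.1 CPM per kb in all groups. Smad3 had 3.65 to 14.3 CPM per kb in the primed, reverted and naive groups, and ranked number 3 of the 9 members in the cultures, at 19.8 CPM per kb at d8 and 15 at d16.

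The first question was how the pathway genes of established reverted cells (d16+10p) differed from those of primed mEpiSCs. Gdf3, a TGF-β family ligand, rose from near the floor, and Smad3 fell to less than its primed level in all 7 libraries. The pair of antagonists moved apart, Lefty1 being lower and Lefty2 higher in all 7 reverted libraries than in both primed libraries, although neither passed the test. Nodal, Tdgf1, Acvr1b and Smad2 had overlapping groups. How many of all genes had groups that did not overlap was not counted. Of the 9 members, 1 was higher and 1 lower at an adjusted p under 0.05 (edgeR's quasi-likelihood test with Benjamini-Hochberg adjustment over 18739 genes), where 16.7% of all genes tested were higher and 19.9% lower. The median log2 fold change was -0.06 over the members and -0.01 over all genes.

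Gdf3 (ENSMUSG00000030117, chr6:122605403-122610087, − strand) had 1 count in the Oct4GIP and 2 counts in the 129/MSM primed library. In the reverted cells at d16+10p it ranged from 74.3 CPM to 118 CPM with a median of 100 CPM, and the naive mESCs had 115 CPM. The groups were fully separated. With the primed libraries at or under the floor, Gdf3 was at least 89.1-fold higher in the reverted cells, and the test gave an adjusted p of 1.17e-09.

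Smad3 (ENSMUSG00000032402, chr9:63646767-63757994, − strand), a receptor-activated effector, measured 55.7 CPM in Oct4GIP and 89.8 CPM in 129/MSM primed mEpiSCs. In the 5 Oct4GIP libraries at d16+10p it measured 38.0 CPM (AICAR), 41.8 CPM (AICAR+LIF), 40.5 CPM (A769662), 28.5 CPM (A769662+LIF) and 22.04 CPM (metformin+LIF). The 129/MSM reverted cells had 21.9 CPM (AICAR) and 29.8 CPM (AICAR+LIF), so every reverted library was under both primed ones. Smad3 fell by 1.17 on the log2 scale (SE 0.26, 2.25-fold, edgeR's quasi-likelihood test, adjusted p = 0.00138). The call rested on the 129/MSM primed library, since without it the log2 change was -0.80 with an adjusted p of 0.0798, and adjusted p ranged from 0.000178 to 0.129 over 17 alternatives.

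The closely related effector Smad2 did not follow Smad3. Smad2 measured 47.8 CPM and 89.5 CPM in the primed libraries, and 60.5 to 85.4 CPM with a median of 72.3 CPM at d16+10p. The reverted values lay between the primed ones, and the log2 fold change was 0.11 (SE 0.20, edgeR adjusted p = 0.731). The count ratio of Smad3 to Smad2 was accordingly 1 to 1.16 in primed mEpiSCs, 0.258 to 0.577 at d16+10p and 0.781 in naive mESCs.

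Lefty1 measured 157 CPM in Oct4GIP and 427 CPM in 129/MSM primed mEpiSCs. At d16+10p the Oct4GIP cells had 31.3 CPM (AICAR), 25.3 CPM (AICAR+LIF), 39.0 CPM (A769662), 60.1 CPM (A769662+LIF) and 77.3 CPM (metformin+LIF), and the 129/MSM cells 63.2 CPM (AICAR) and 140 CPM (AICAR+LIF). All 7 were lower than either primed library. The log2 fold change was -2.21 (SE 1.11), which missed the threshold (adjusted p = 0.128, edgeR). When the fit held only the libraries of this comparison, the log2 change was -2.23 with an adjusted p of 0.00467, and over 16 alternatives the adjusted p ranged from 0.00467 to 0.55.

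Lefty2 showed the opposite order. Its primed levels were 6.35 CPM in Oct4GIP and 54.1 CPM in 129/MSM cells. At d16+10p the Oct4GIP cells had 99.96 CPM (AICAR), 59.2 CPM (AICAR+LIF), 56.2 CPM (A769662), 133 CPM (A769662+LIF) and 102 CPM (metformin+LIF), and the 129/MSM cells 300.1 CPM (AICAR) and 625 CPM (AICAR+LIF). The lowest reverted library was just above the higher primed one, while the other 6 were above it by more. The log2 fold change was 2.72 (SE 1.20, edgeR adjusted p = 0.0813), with adjusted p from 0.0312 to 0.389 over the alternatives.

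Because the genes are copies measured in the same libraries, their count ratio does not depend on depth. Lefty2 to Lefty1 was 0.0404 in Oct4GIP and 0.127 in 129/MSM primed mEpiSCs, 1.15 to 1.90 at d16+2-3p, 1.32 to 4.75 at d16+10p and 6.45 in naive mESCs. Lefty1 thus had more counts than Lefty2 in both primed libraries, and Lefty2 had more than Lefty1 in all 11 reverted libraries. These counts are not scaled for length, and the main transcript has 1620 bases for Lefty1 and 2473 bases for Lefty2. Per kb of transcript, mean Lefty1 and Lefty2 were nearly equal at d16+2-3p (45.9 and 46.8 CPM per kb). At d16+10p they were 38.4 and 79.5 CPM per kb, and in primed mEpiSCs 180 and 12.2. The mean log2 ratio was 1.34 at d16+10p (n = 7) and -3.80 in primed mEpiSCs (n = 2), a difference of 5.15 (two-sided exact permutation p = 0.0556, the smallest that 7 against 2 libraries allow). Over all 11 reverted libraries the difference was 4.87 (two-sided exact permutation p = 0.0256, again the smallest possible). The ratio was formed after the levels of both genes had been seen, so neither p-value is support for the difference. The 11 reverted libraries include the same line and treatments at different passages, so they may not be independent of each other.

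**Figure D2:**
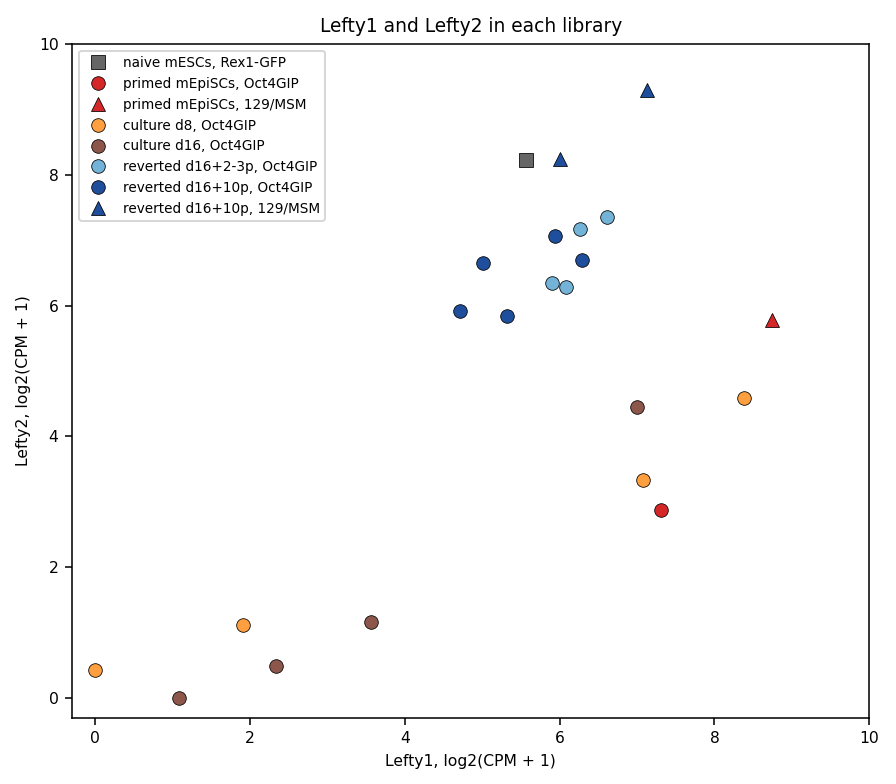
Lefty2 against Lefty1 in each of the 22 libraries (log2 scale of CPM + 1 on both axes, 1 point per library, coloured by group with triangles for 129/MSM). The 2 primed libraries lie at high Lefty1 and low Lefty2 with count ratios of 0.0404 and 0.127, the 11 reverted libraries and the naive library all have ratios of at least 1.15, and the cultures with AICAR keep the primed order.

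Nodal (ENSMUSG00000037171, chr10:61417972-61425338, + strand), the ligand itself, was present both before and after reversion. It measured 54.2 CPM and 69.2 CPM in the Oct4GIP and 129/MSM primed libraries, 62.4 to 115 CPM with a median of 79.9 CPM at d16+10p, and 84.2 CPM in naive mESCs. The groups overlapped, and the log2 fold change was 0.46 (SE 0.81, edgeR adjusted p = 0.702). Tdgf1 (ENSMUSG00000032494, chr9:110939603-110946158, − strand) was likewise high in both, at 439 CPM and 364 CPM in primed and 195 to 572 CPM at d16+10p (log2 fold change -0.33, SE 0.81).

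The receptor genes passed no test in this comparison. Acvr1b (ENSMUSG00000000532, chr15:101174067-101213684, + strand), the type I receptor also known as ALK4, measured 63.5 CPM and 88.2 CPM in primed mEpiSCs and 41.6 to 106 CPM at d16+10p (edgeR adjusted p = 0.934). Acvr2b (ENSMUSG00000061393, chr9:119402118-119434995, + strand), a type II receptor, measured 26.2 CPM and 43.5 CPM in primed mEpiSCs and 17.4 to 26.4 CPM at d16+10p (log2 fold change -0.60, SE 0.31, adjusted p = 0.139). The highest reverted Acvr2b value exceeded the lower primed one by a narrow margin.

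**Figure D3:**
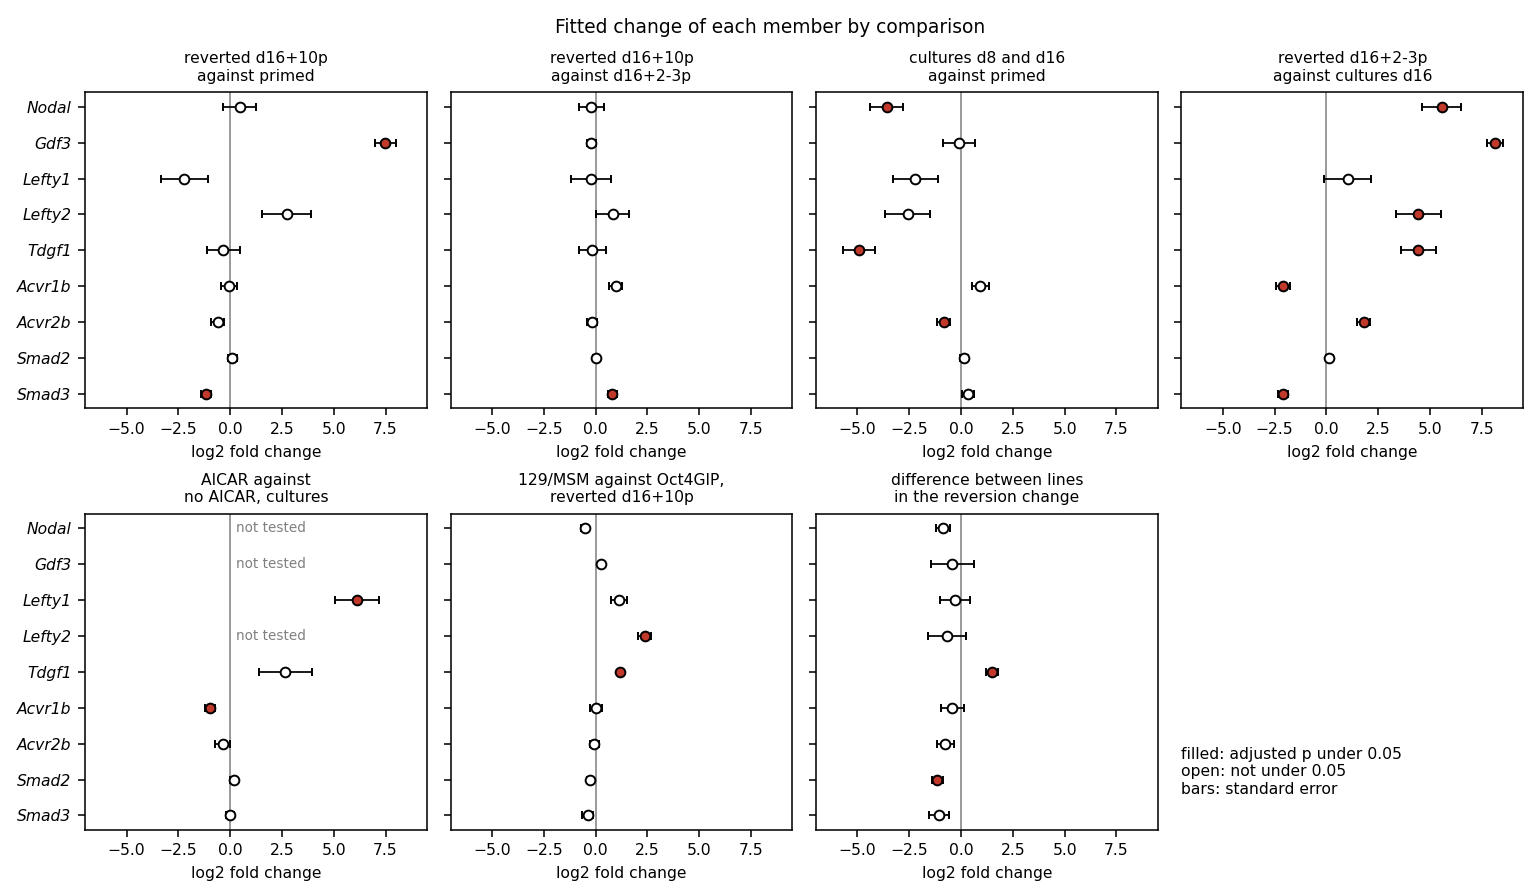
Log2 fold change of each member in each comparison (horizontal axis, points with bars of 1 SE, filled where the adjusted p is under 0.05). Reverted cells at d16+2-3p against cultures at d16 have 7 of 9 members called, where 33.2% of all genes were called higher and 37.9% lower, and d16+10p against primed mEpiSCs has 2, where the shares were 16.7% and 19.9%.

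Of 38 other genes of the pathway, listed by role, 1 was higher and 20 were lower in the reverted cells, with a median log2 fold change of -1.05 against -0.01 over all genes. Pcsk6, a proprotein convertase that processes ligands of this family, was higher by 5.22 on the log2 scale (SE 0.46, edgeR adjusted p = 3.88e-08). The lower genes with the largest change were the secreted antagonist Cer1 (log2 fold change -11.27), the transcription factor Lhx1 (-10.77) and the co-receptor Cfc1 (-8.43). These 3 were high in the 129/MSM primed library alone, where Cer1 reached 762 CPM against 1 count in the Oct4GIP primed library. Without the 129/MSM primed library 34 of the genes could be tested, and 1 was higher and 6 were lower (median -0.20, against 0.07 over all genes, of which 14.2% were higher and 14.6% lower). Pcsk6 was still higher (log2 fold change 5.03, adjusted p = 7.91e-06), Lhx1 was not called (1.11, adjusted p = 0.834), and Cer1 and Cfc1 were too low to test.

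The next question was whether the pathway genes still changed between early (d16+2-3p) and late (d16+10p) passages in 2iL. Smad3, low at d16+2-3p, was higher at d16+10p. The ligands, the antagonists and Tdgf1 had overlapping levels and log2 fold changes between -0.22 (Nodal) and 0.82 (Lefty2, SE 0.79), which did not pass. Of 9 members, 1 was higher and 0 were lower (edgeR's quasi-likelihood test, adjusted p under 0.05, with 2 higher and 0 lower at an unadjusted p under 0.05), where 4.75% of all genes were higher and 4.61% lower. The median over the members was -0.16 against 0 over all genes.

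Smad3 at d16+2-3p measured 23.1 CPM (AICAR, 2 passages), 21.7 CPM (AICAR+LIF, 2 passages), 15.2 CPM (AICAR, 3 passages) and 14.2 CPM (AICAR+LIF, 3 passages). These were the lowest Smad3 values of the series together with those of the 129/MSM AICAR and the metformin+LIF cells at d16+10p. Smad3 was higher at d16+10p by 0.81 on the log2 scale (SE 0.23, 1.76-fold, edgeR adjusted p = 0.0319), although the groups overlapped. The call was lost with limma voom (adjusted p = 0.0741) and without any 1 of 6 libraries (the d16+2-3p libraries other than AICAR at 2 passages, and the Oct4GIP cells of AICAR, AICAR+LIF and A769662 at d16+10p), where adjusted p was 0.0508 to 0.122. Over 19 alternatives it ranged from 0.0152 to 0.122 and the call held in 12.

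Acvr1b showed a difference of similar size. It measured 37.9 CPM (AICAR) and 30.9 CPM (AICAR+LIF) at 2 passages, and 36.6 CPM (AICAR) and 46.7 CPM (AICAR+LIF) at 3 passages, against a median of 67.4 CPM at d16+10p. Only the metformin+LIF cells, at 41.6 CPM, fell within the earlier range. The log2 fold change was 0.96 (SE 0.31, 1.95-fold, edgeR adjusted p = 0.0588), just missing the threshold, and it was called in 5 of 19 alternatives with adjusted p from 0.00928 to 0.164. Among the other pathway genes 1 of 38 was called, Pcsk6, which was higher by 0.98 on the log2 scale (adjusted p = 0.0143). In the same comparison the primed gene Dnmt3b (log2 fold change -2.05, adjusted p = 0.00308) and the pluripotency genes Lin28a (-1.94, adjusted p = 0.00316) and Utf1 (-3.09, adjusted p = 0.000521) were lower at d16+10p, the feeder gene Col1a1 was lower (-3.34, adjusted p = 0.0205) and the naive gene Tfcp2l1 higher (0.96, adjusted p = 0.0103). Their part in the differences of Smad3 and Acvr1b was not tested.

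The cultures at d8 and d16 were compared with primed mEpiSCs to follow the pathway genes through the treatment. The cultures differ from the primed cells in the loss of FGF2 and Activin A and also in the feeders and the serum-containing Basal medium, which cannot be told apart here. Nodal and its co-receptor Tdgf1 were lower in all 8 cultures than in both primed libraries, although Nodal at d8 with AICAR or AICAR+LIF was still at 27.4 and 42.2 CPM. The share of all genes that were lower in every culture was not counted. The receptor Acvr2b was lower as a group, while Acvr1b, Smad2 and Smad3 were still expressed. Of 9 members, 0 were higher and 3 lower (edgeR's quasi-likelihood test, adjusted p under 0.05, with 1 higher and 4 lower at an unadjusted p under 0.05), where 18.1% of all genes were higher and 19.4% lower. The median log2 fold change was -0.83 over the members and 0.04 over all genes. These comparisons use the same 2 primed libraries as those of the reverted cells, so the sets of values are not independent.

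Nodal at d8 measured 0.343 CPM in Basal medium, 0 CPM in 2iL, 27.4 CPM with AICAR and 42.2 CPM with AICAR+LIF. At d16 it was 0 CPM in Basal medium and in 2iL, 0.926 CPM with AICAR and 8.19 CPM with AICAR+LIF. Nodal was therefore under its floor in all 4 cultures without AICAR, and detected above it in 3 of the 4 with AICAR. The log2 fold change over all 8 was -3.59 (SE 0.80, 12.1-fold lower, edgeR adjusted p = 0.00158). The call was lost when only the d8 cultures were compared (-2.29, adjusted p = 0.0821) and when only the libraries of the comparison were fitted (adjusted p = 0.0688), and it held in the other 20 alternatives, with adjusted p from 9.78e-09 to 0.0821 over all 22.

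Tdgf1 at d8 measured 0.686 CPM in Basal medium, 0.391 CPM in 2iL, 11.9 CPM with AICAR and 55.6 CPM with AICAR+LIF. At d16 it measured 1.86 CPM in Basal medium, 19.5 CPM in 2iL, 2.16 CPM with AICAR and 43.2 CPM with AICAR+LIF. At both days AICAR+LIF had the highest value, and all 8 were far under the primed 364 CPM. Tdgf1 fell by 4.94 on the log2 scale (SE 0.77, 30.6-fold, edgeR adjusted p = 6.75e-05), a call that held in 22 of 22 alternatives (adjusted p from 1.07e-06 to 0.0113).

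Lefty1 and Lefty2 were spread widely between cultures, so that a mean over the 8 describes neither kind of culture. Their log2 fold changes of -2.21 (SE 1.10, edgeR adjusted p = 0.119) and -2.58 (SE 1.09, adjusted p = 0.0684) did not pass. When only the 4 cultures without AICAR were compared with primed mEpiSCs, a comparison chosen after seeing the data, both were lower, with log2 fold changes of -7.34 for Lefty1 (adjusted p = 3.54e-06) and -6.31 for Lefty2 (adjusted p = 0.00265). Over 22 alternatives Lefty1 was called in 6 (adjusted p from 3.54e-06 to 0.537) and Lefty2 in 7 (from 0.00265 to 0.934). Gdf3 was already at the floor in primed mEpiSCs, with 1 and 2 counts, and had 0 to 3 counts in each culture.

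The receptors and effectors followed other courses. Acvr2b was at 72.0 CPM in Basal medium, 49.7 CPM in 2iL, 32.0 CPM with AICAR and 32.6 CPM with AICAR+LIF at d8, and at 10.0, 2.84, 8.65 and 6.70 CPM in the same order at d16. Every d8 value was above every d16 value, and the d8 values reached or exceeded the primed range while those at d16 were all under it. The log2 fold change over both days was -0.83 (SE 0.31, 1.78-fold lower, edgeR adjusted p = 0.0373), which turned to 0.55 (adjusted p = 0.263) with the d8 cultures alone and was lost without the 129/MSM primed library (-0.48, adjusted p = 0.388). It was called in 13 of 22 alternatives, with adjusted p from 5.5e-05 to 0.469.

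Acvr1b was at 172 CPM in Basal medium, 162 CPM in 2iL, 76.7 CPM with AICAR and 65.1 CPM with AICAR+LIF at d8. At d16 it was at 139 CPM in Basal medium, 266 CPM in 2iL, 81.8 CPM with AICAR and 145 CPM with AICAR+LIF. The 4 cultures without AICAR were above the primed 63.5 and 88.2 CPM, and over all 8 the log2 fold change was 0.93 (SE 0.40, edgeR adjusted p = 0.0704). Smad3 was kept, at 53.6 to 109 CPM with a median of 93.1 CPM (log2 fold change 0.34), and Smad2 at 50.3 to 94.7 CPM with a median of 74.1 CPM (0.14). Feeder genes in these libraries summed to 3152 to 3428 CPM at d8 and 5763 to 51820 CPM at d16, against 66.1 and 893 CPM in primed mEpiSCs, and their part in the levels of receptors and effectors was not tested.

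Of the 38 other pathway genes 7 were higher and 14 lower in the cultures (median -0.24, against 0.04). The ligand genes Gdf1 (log2 fold change 3.02, edgeR adjusted p = 0.00496) and Inhbb, an Activin subunit (2.62, adjusted p = 0.0381), and the TGF-β receptor gene Tgfbr2 (2.19, adjusted p = 0.0216) were the higher genes with the largest change. Cer1 (-8.95), Cfc1 (-8.23) and the endoderm factor Sox17 (-7.41) were the lower ones. Without the 129/MSM primed library, in which those 3 were high, 9 were higher and 4 lower of 34 tested (median 0.36, against 0.12, with 14.5% of all genes higher and 16.1% lower).

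The passage from treated cultures at d16 to reverted cells at d16+2-3p was compared next. Nodal, Gdf3, Lefty2, Tdgf1 and Acvr2b rose and Acvr1b and Smad3 fell, each with groups that did not overlap. The share of all genes separated in this way was not counted. Of 9 members, 5 were higher and 2 lower by edgeR's quasi-likelihood test, where 33.2% of all genes were higher and 37.9% lower, so that most genes changed at this step. The median log2 fold change was 1.79 over the members and -0.15 over all genes. All 7 calls held in every alternative run except under a minimum of 10 counts in each library, which left the 5 higher genes untested.

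Nodal measured 97.0 CPM (AICAR) and 93.5 CPM (AICAR+LIF) at 2 passages, and 98.3 CPM (AICAR) and 111 CPM (AICAR+LIF) at 3 passages. The highest culture at d16 had 8.19 CPM. Nodal was 47.4-fold higher (log2 fold change 5.57, SE 0.95, edgeR adjusted p = 2.96e-05). Tdgf1 measured 311 to 442 CPM after passage against at most 43.2 CPM before it, a 21.8-fold difference (log2 fold change 4.45, SE 0.87, adjusted p = 0.000126). Gdf3 appeared at this step, with 106 to 128 CPM at d16+2-3p against 0 to 3 counts in each culture, at least 97.0-fold higher.

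The antagonists again behaved differently from each other. Lefty2 measured 80.7 CPM (AICAR) and 76.7 CPM (AICAR+LIF) at 2 passages, and 143 CPM (AICAR) and 163 CPM (AICAR+LIF) at 3 passages. It was 21.6-fold higher than in the cultures at d16 (log2 fold change 4.43, SE 1.09, edgeR adjusted p = 0.00118). Lefty1 measured 58.5 to 96.6 CPM, within the range of the cultures at d16, whose AICAR+LIF library had 127 CPM and the other 3 at most 10.8 CPM. The log2 fold change of Lefty1 was 1.03 (SE 1.14, adjusted p = 0.422), and without the AICAR+LIF culture it was 3.81 with an adjusted p of 0.0121 (range over 15 alternatives 0.00338 to 0.969).

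Acvr2b was higher by 1.79 on the log2 scale (SE 0.31, 3.47-fold, edgeR adjusted p = 2.99e-05), from 2.84 to 10.0 CPM in the cultures to 23.7 to 29.4 CPM. Acvr1b was lower by 4.29-fold (log2 fold change -2.10, SE 0.35, adjusted p = 2.23e-05) and Smad3 by 4.28-fold (-2.10, SE 0.26, adjusted p = 5e-07). Smad2 groups overlapped, at 70.5 to 77.7 CPM after and 50.3 to 78.2 CPM before (log2 fold change 0.15, SE 0.18, adjusted p = 0.468). The feeder genes summed to 14.6 to 111 CPM at d16+2-3p against 5763 to 51820 CPM in the cultures at d16, and their part in these differences was not tested.

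Among the 38 other pathway genes 8 were higher and 19 lower (median -1.03, against -0.15). The higher genes with the largest change were Foxh1, the SMAD partner (log2 fold change 5.95, edgeR adjusted p = 6.37e-08), the antagonist Dact2 (2.92) and Pcsk6 (2.74). The lower ones were Tgfbr2 (-6.89), the Activin subunit gene Inhba (-6.69) and Inha (-5.60), whose product is a subunit of inhibin. By role, 4 of 5 ligand and processing genes and 4 of 6 receptor genes were lower and 1 and 0 were higher. Of 7 antagonists 2 were higher and 4 lower, of 11 effectors 5 and 4, and of 9 targets 0 and 3. Over all genes 33.2% were higher and 37.9% lower.

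AICAR was then compared with no AICAR within the cultures, with the day as a covariate (4 against 4 libraries). Lefty1 was higher in all 4 cultures with AICAR, and Nodal and Lefty2 were above their values in every culture without it although they were too low to enter the test. Genes separated in this way were not counted over the whole table. Acvr1b was lower as a group. Of 9 members 6 were tested, with 1 higher and 1 lower, where 3.54% of 14026 genes were higher and 6.06% lower. The median was 0.08 over the tested members and -0.02 over all genes.

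Lefty1 at d8 had 0 counts in Basal medium, 7 counts in 2iL, 147 counts with AICAR and 173 counts with AICAR+LIF, the last in the shallowest library. At d16 it had 6 counts in Basal medium, 10 counts in 2iL, 35 counts with AICAR and 340 counts with AICAR+LIF. On the CPM scale the cultures with AICAR had 134 and 332 CPM at d8 and 10.8 and 127 CPM at d16, and those without had 0 to 4.06 CPM. Lefty1 was 69.1-fold higher with AICAR (log2 fold change 6.11, SE 1.05, edgeR's quasi-likelihood test with Benjamini-Hochberg adjustment, adjusted p = 0.015). It passed the filter on low counts only through the cultures with AICAR, where it was high, so the test is not separate support for the difference. The summed feeder genes did not follow AICAR at d8 (3152 to 3428 CPM in all 4 cultures), whereas at d16 they varied from 5763 to 51820 CPM. Of the 12 feeder genes 11 were tested, and Postn (log2 fold change 1.81, adjusted p = 0.0104) and Pdgfrb (0.84, adjusted p = 0.0364) were higher with AICAR. The other tested feeder genes were not called, and all but Prrx1 (1.71) had negative changes, down to -1.17 (Col3a1). Of the 6 pluripotency genes 5 were tested, and Pou5f1 (4.17), Nanog (3.28), Sall4 (3.00) and Lin28a (2.76) were higher (adjusted p from 0.0119 to 0.0416). Sox2 went the other way (-0.72, adjusted p = 0.133). The summed pluripotency genes at d8 were 282 CPM (AICAR) and 274 CPM (AICAR+LIF), against 181 CPM (Basal medium) and 230 CPM (2iL). At d16 they were 142 and 165 CPM against 311 and 173 CPM in the same order. The part of feeder and pluripotency genes in the Lefty1 difference was not tested. The Lefty1 difference was called in 11 of 15 alternatives and not without the AICAR+LIF library of d16 (5.44, adjusted p = 0.0574) or with the d16 cultures alone (4.89, adjusted p = 0.221, the highest over the alternatives, the lowest being 2.36e-78).

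Lefty1 was high relative to Pou5f1 (Oct4), the core pluripotency factor, where AICAR was present, and so was Nodal. In the cultures with AICAR, Pou5f1 measured 13.7 CPM (AICAR) and 34.5 CPM (AICAR+LIF) at d8 and 3.71 CPM (AICAR) and 21.2 CPM (AICAR+LIF) at d16, against 470 to 831 CPM in primed mEpiSCs. The count ratio of Lefty1 to Pou5f1 was 2.92 to 9.80 in those 4 libraries, 0.189 and 0.908 in primed mEpiSCs and 0.0293 to 0.162 in all reverted cells. Per count of Pou5f1, the AICAR cultures thus held more Lefty1 than any primed, reverted or naive library. Their ratios rest on only 12 to 57 counts of Pou5f1 per library. A high ratio was not particular to Lefty1. For Nodal to Pou5f1 it was 0.25 to 2 in the same 4 libraries, against 0.0652 and 0.147 in primed mEpiSCs. For Tdgf1 to Pou5f1 it was 0.583 to 2.04, the lowest lying between the primed 0.529 and 0.774. The cultures without AICAR had only 2 to 4 counts of Pou5f1 each, too few for a ratio to be read. The count ratio of Lefty2 to Lefty1 in the 4 cultures with AICAR was 0.068 to 0.165, which was under 1 as in primed mEpiSCs.

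Nodal and Lefty2 were removed by the filter on low counts, so their differences are given without a test. Against the floor of the cultures without AICAR, Nodal was at least 16.1-fold and Lefty2 at least 11.1-fold higher in the mean of those with AICAR. Lefty2 counts were 1 in Basal medium, 3 in 2iL, 10 with AICAR and 12 with AICAR+LIF at d8, and 0, 1, 4 and 56 in the same order at d16. Tdgf1 was higher by 2.65 on the log2 scale (SE 1.28) and did not pass (edgeR adjusted p = 0.206). Leaving out the 2iL culture of d16, which had 19.5 CPM, gave 4.5 with an adjusted p of 0.033, and adjusted p ranged from 5.76e-10 to 0.743 over 15 alternatives.

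Acvr1b was lower with AICAR by 1.98-fold (log2 fold change -0.98, SE 0.26, edgeR adjusted p = 0.0469), with the levels at each culture as given above. The AICAR+LIF culture of d16 (145 CPM) overlapped the group without AICAR, whose lowest library had 139 CPM. The call passed in 5 of 16 alternatives, with adjusted p from 7.8e-05 to 0.406. Acvr2b, Smad2 and Smad3 had log2 fold changes of -0.37, 0.16 and -0.00. Of the other pathway genes 30 could be tested, with 6 higher and 1 lower (median 0.43, against -0.02). The mesendoderm factors T (2.78, adjusted p = 0.0409) and Eomes (2.70, adjusted p = 0.0258) and the Activin subunit gene Inhba (2.32, adjusted p = 0.0395) led the higher genes, and Inha (-1.96, adjusted p = 0.0319) was the lower one.

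**Figure D4:**
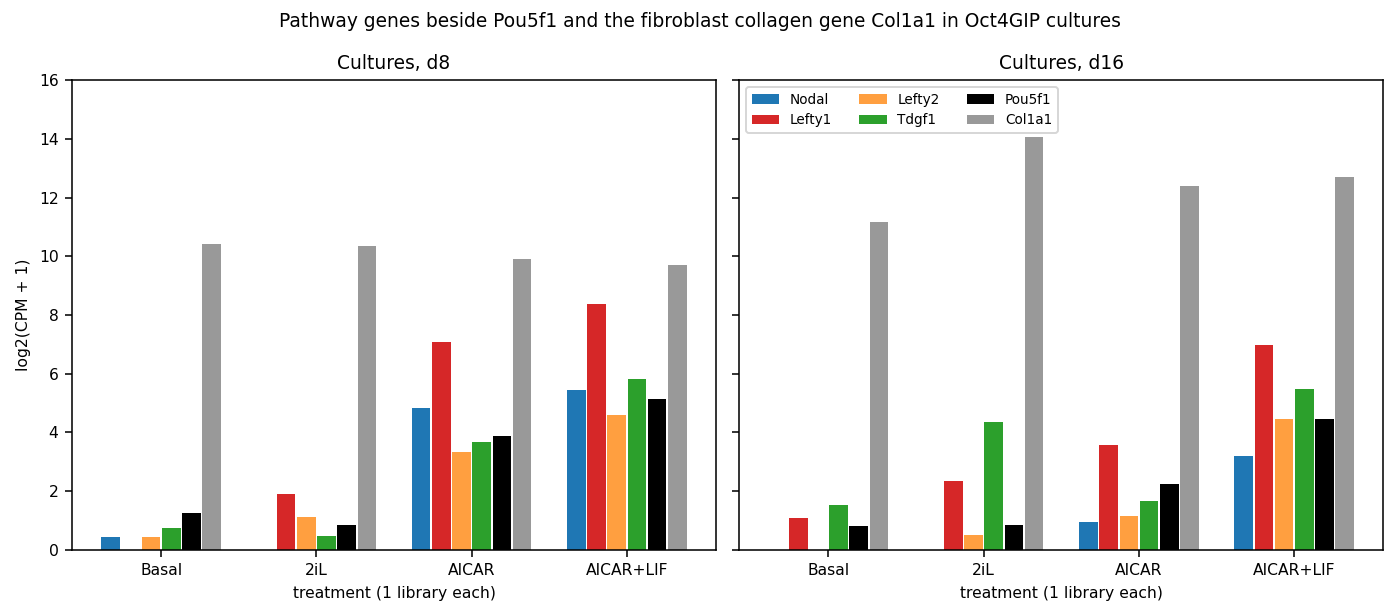
Bars give log2(CPM + 1) of Nodal, Lefty1, Lefty2, Tdgf1, Pou5f1 and the fibroblast collagen gene Col1a1 in the 8 Oct4GIP cultures, d8 in the left and d16 in the right panel, with 1 library per treatment. Lefty1 lies at 10.8 to 332 CPM in the 4 cultures with AICAR and at 4.06 CPM or less in the 4 without, while Col1a1 is the tallest bar in all 8 (843 to 17220 CPM).

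The last question was whether reverted cells of the 129/MSM line (2 libraries) and the Oct4GIP line (5 libraries) at d16+10p differed. Lefty2 and Tdgf1 were higher in the 129/MSM cells, with no overlap between the lines. The share of all genes without overlap between the lines was not counted. Of 9 members 2 were higher and 0 lower (edgeR's quasi-likelihood test, adjusted p under 0.05, with 3 higher and 1 lower at an unadjusted p under 0.05), where 4.21% of 15930 genes were higher and 3.55% lower. The median was 0.03 over the members and -0.03 over all genes. Line and AMPK activator were only partly crossed, since A769662 and metformin were used on Oct4GIP alone. The lines also differ in strain and sex, which cannot be told apart here.

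Lefty2 had a mean of 463 ± 230 CPM (SD, n = 2) in the 129/MSM cells and 90.1 ± 32.4 CPM (SD, n = 5) in the Oct4GIP cells. It was 5.16-fold higher (log2 fold change 2.37, SE 0.32, edgeR adjusted p = 0.00163). Tdgf1 measured 572 CPM (AICAR) and 474 CPM (AICAR+LIF) in the 129/MSM cells. In the Oct4GIP cells it measured 236 CPM (AICAR), 220 CPM (AICAR+LIF), 195 CPM (A769662), 273 CPM (A769662+LIF) and 220 CPM (metformin+LIF). The groups were far apart relative to their spread, and Tdgf1 was 2.30-fold higher in the 129/MSM cells (log2 fold change 1.20, SE 0.14, edgeR adjusted p = 0.000769). Both calls held in 13 of 13 alternatives, including the AICAR and AICAR+LIF libraries alone, with adjusted p of at most 0.0483 for Lefty2 and 0.021 for Tdgf1.

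The other members differed less between the lines. Nodal was lower in both 129/MSM libraries (62.4 and 64.3 CPM) than in all 5 Oct4GIP libraries (70.9 to 115 CPM), but its log2 fold change of -0.53 (SE 0.18) did not pass (edgeR adjusted p = 0.0916). Lefty1 had a log2 fold change of 1.12 (SE 0.38, adjusted p = 0.0992) and was called in 3 of 13 alternatives, among them the AICAR and AICAR+LIF libraries alone (1.84, adjusted p = 0.0319, range over the alternatives 0.0157 to 0.698). Of the other pathway genes 3 were higher and 4 lower among 36 tested (median -0.18, against -0.03). The higher ones were T (3.17, adjusted p = 0.00081), the Activin antagonist Fst (2.45, adjusted p = 0.0157) and Pcsk6 (0.46, adjusted p = 0.0476), and the lower ones included Inhbb (-2.46) and Foxh1 (-0.63).

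The difference between the lines in the change from primed to reverted cells was tested as an interaction, with 1 primed library per line. It was called for Tdgf1, which was 2.83-fold more in 129/MSM (log2 1.5, SE 0.29, edgeR adjusted p = 0.0136), and for Smad2, which was 2.2-fold less (log2 -1.14, SE 0.26, adjusted p = 0.0288), where 2.88% and 4.38% of all genes were called in these directions. Tdgf1 was 364 CPM before and 474 to 572 CPM after reversion in 129/MSM, and 439 CPM before and 195 to 273 CPM after in Oct4GIP. Smad2 was 89.5 CPM before and 60.5 to 66.4 CPM after in 129/MSM, and 47.8 CPM before and 71.9 to 85.4 CPM after in Oct4GIP. Each rests on single primed libraries, of which the 129/MSM one had the endoderm and feeder genes described above, and the part of these in the interaction was not tested. The Smad2 call was lost without either 129/MSM reverted library (adjusted p = 0.0566 and 0.0848) and with the AICAR and AICAR+LIF libraries alone (0.0582), and held in 10 of 13 alternatives. Of 36 other pathway genes 0 were higher and 9 lower (median -0.76, against -0.07), led by Lhx1 (-14.25), Inhba (-11.30) and Sox17 (-11.15), which were high in the 129/MSM primed library.

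Across the 22 libraries the members fell into pairs that varied together and pairs that did not. The values are correlations of log2 CPM over all libraries (n = 22), which share groups and depth, and are given as a description. Nodal and Tdgf1 had r = 0.916, Nodal and Lefty2 r = 0.897, and Lefty2 and Tdgf1 r = 0.883. Lefty1 and Lefty2 had a lower value of 0.69, and Gdf3 and Lefty1 had 0.266. Smad3 ran opposite to Gdf3 (r = -0.869) and Acvr1b opposite to Nodal (r = -0.804).

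The genes most like each member were sought among 11721 genes with a mean of at least 10 CPM. For Nodal they were Polr3g (r = 0.968), Cdh1 (0.959) and Pou5f1 (0.958), and for Tdgf1 they were its pseudogene Tdgf1-ps1 (0.983), with which it shares sequence, Rbpms (0.963) and Chmp4c (0.953). Gdf3 was most like Morc1 (0.996), Gm2381 (0.994) and Zfp640 (0.994). Lefty2 was most like Fignl1 (0.944), Mtap (0.943) and Hnrnpf (0.942), whereas the values of Lefty1 were lower, with Il17rd at 0.886, Ehd4 at 0.867 and Atp10d at 0.861. The closest genes to the receptors were Cadm4 for Acvr1b (0.934) and Tfdp2 for Acvr2b (0.901), and to the effectors Tox3 for Smad3 (0.936) and Map3k7 for Smad2 (0.749).

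The deposited transcript counts gave the isoforms behind the gene values. Nodal and Acvr1b had 100% of their counts on 1 transcript. Of Tdgf1 counts, 66.4% were on the coding transcript Tdgf1-201 and 25.5% on Tdgf1-202, annotated as a target of nonsense-mediated decay, a share of 24.7% to 26.6% in naive, primed and reverted groups. Of Lefty1 counts, 86.8% were on Lefty1-201 and 13.2% on the retained-intron transcript Lefty1-202. For Lefty2 the retained-intron transcript Lefty2-202 held 3.74% at d16+2-3p, 3.75% at d16+10p and 3.96% in naive mESCs but 20% in primed mEpiSCs, where it had 37 of 185 counts. Lefty1, with which Lefty2 shares the windows described above, had 1747 counts in the same 2 libraries, and its part in the counts of Lefty2-202 was not tested.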

How the data were processed

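Total RNA was sequenced by the authors as stranded poly(A) libraries (Illumina HiSeq, 79-base single reads). Reads were aligned with Bowtie2 2.2.5 (per the submitters' processing notes) to Ensembl cDNA and ncRNA sequences of GRCm38, reads with a mapping quality of at least 1 were kept, and the deposited values are whole counts per gene and per transcript without normalization. Because reads were aligned to transcripts, reads shared by near-identical copies can be assigned to either copy.

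The 9 members, the 38 other pathway genes and the marker lists were chosen with earlier results of these data known, although the rule for the members uses no measured value. All members were named in every comparison, with up to 3 other pathway genes per direction (those called, by largest log2 fold change) and the 3 genes most correlated with each member, except that a gene and a sequence are not reported here. Groups were taken from the sample labels. CPM values were scaled by TMM factors. Tests were edgeR 4.0.16 quasi-likelihood tests (R 4.3.3) after its default filter on low counts, with Benjamini-Hochberg adjustment over all genes tested and a threshold of 0.05. A fit of 22 libraries in 6 groups (18739 genes) gave the comparisons of reverted, primed and treated cells. A fit of the 8 cultures with day as a covariate (14026 genes) gave the comparison of AICAR with no AICAR. A fit of 9 primed and d16+10p libraries (15930 genes) gave the comparisons of lines. SEs were derived from the log2 fold change and its F statistic. The pipeline was tested on simulated data. Alternatives were DESeq2 1.42.0, limma voom 3.58.1, no normalization factors, other filters (none, or at least 10 counts in every library), other sets of libraries and the omission of each library. Further sets, chosen after the data had been examined, were the cultures split by day and AICAR, the cultures without AICAR alone, and AICAR+LIF against no AICAR. Sequences came from RefSeq (GRCm38.p6) and GENCODE M21, read with Biopython 1.88. The precision is limited by depth, which was lowest (438771 counts) in the AICAR+LIF culture of d8.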

Additional observations from a re-analysis of the deposited data

Results flagged for a closer look

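Within a group of 4 to 10 libraries, a library was noted when it lay far from the rest relative to the group's whole range. Of 36 sets of values examined this way (1 member in 1 group), 4 held such a library. The rule's rate of about 1 in 20 is for replicates with a normal spread. These groups mix treatments, and at d16+10p also lines, so the 4 cannot be set against that rate. In the cultures at d16, the AICAR+LIF library was the highest for Nodal (8.19 CPM, next 0.926 CPM), Lefty1 (126.6 CPM, next 10.8 CPM) and Lefty2 (20.85 CPM, next 1.24 CPM). In the reverted cells at d16+10p, the 129/MSM AICAR+LIF library was the highest for Lefty2 (625.4 CPM, next 300.1 CPM).

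The change from primed to reverted cells at d16+10p differed between the lines for Tdgf1 by 1.5 on the log2 scale (129/MSM minus Oct4GIP) and for Smad2 by -1.14, both past the threshold of edgeR's interaction test. By mean log2(CPM + 1), 3 members moved in opposite directions in the lines, each with 1 primed library per line. Nodal changed by 0.73 in Oct4GIP and by -0.13 in 129/MSM (difference -0.86), and this difference was not called by the interaction test. Tdgf1 changed by -0.95 in Oct4GIP and 0.51 in 129/MSM (difference 1.46), and Smad2 by 0.67 in Oct4GIP and -0.49 in 129/MSM (difference -1.16).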

How the results depend on the processing

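Of 975 values of single genes recomputed under the alternatives, 895 kept their direction and side of the threshold, 37 lost the threshold, 42 gained it and 1 reversed (Acvr2b with the d8 cultures alone against primed, log2 fold change 0.55). The cause of the following changes was not tested, except that a minimum of 10 counts in every library left 3 members testable. For d16+10p against primed, 1 member was higher and 1 lower; higher counts became 2 with limma voom or split cultures and 0 with the 10-count minimum, and lower counts 2 with limma voom or split cultures, 3 with only the groups compared and 0 with Oct4GIP alone. For d16+10p against d16+2-3p, the 1 higher member became 2 with DESeq2, no normalization factors, only the groups compared or split cultures, and 0 with limma voom. For cultures against primed, 0 higher became 1 with DESeq2, the 10-count minimum, Oct4GIP primed cells alone, d16 cultures alone, the omission of both AICAR cultures of d8, split cultures or cultures without AICAR, and 3 lower became 0 with the 10-count minimum, 1 with only the groups compared or d8 cultures alone, and 5 with split cultures. For d16+2-3p against d16 cultures, 5 higher became 0 with the 10-count minimum. For AICAR, 1 higher became 0 with limma voom, the 10-count minimum, no day term or d16 alone, 4 with no filter and 3 with AICAR+LIF against no AICAR, and 1 lower became 0 with limma voom, no day term, d16 alone or AICAR+LIF. For the interaction, 1 lower became 0 with AICAR and AICAR+LIF libraries alone. Leaving out each library gave, in the same order, 1 to 1 higher and 0 to 1 lower, 0 to 2 and 0 to 0, 0 to 1 and 2 to 5, 5 to 6 and 2 to 2, 0 to 4 and 0 to 1 for AICAR, 2 to 3 and 0 to 0 for the lines, and 1 to 1 and 0 to 1 for the interaction. The labels give no replicate numbers by which to pair libraries, and a fit blocked by treatment was not run. Depth limits Gdf3, Nodal and Lefty2 in the cultures, where at least 4 of the 8 libraries held 3 counts or fewer.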
